A study of Mus musculus with 56 samples.

Results

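The transcripts of 6 genes that build caveolae were followed through 56 RNA-sequencing samples of mouse mammary tumor cells with floxed or altered alleles of β-catenin (Ctnnb1). The genes were the caveolins Cav1 and Cav2, the cavins Cavin1, Cavin2 and Cavin3, and Ehd2. They are 6 of the 20314 genes in the table. The set was put together around a known result, the loss of Cavin1 in D164A/- against fl/fl cells, so that this comparison is given below as a description without a test, and the other lines and the cytokine treatments are tested. All 6 passed the filter of at least 1 CPM in at least 2 samples, and 13754 genes did so in all. CPM are here read counts scaled to an effective library size.

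The cells came from tumors of MMTV-PyMT mice (FVB/N), in which the polyoma middle T oncogene is driven by the MMTV promoter in the mammary epithelium, and all lines carry this transgene. There were 7 genotypes of the β-catenin gene, with 8 samples each. They are taken from the sample titles and mutation labels, while the treatment text of the labels names Pygo2 lines instead. The fl/fl cells have floxed alleles only and served as the wild type. The D164A/fl, ΔC/fl and dm/fl cells carry a mutant allele beside a floxed allele, and the D164A/-, ΔC/- and dm/- cells have lost the floxed allele. D164A is a point mutation in the part of β-catenin that binds Bcl9 and Bcl9L, and the labels give no description of ΔC and dm. According to the study's methods, the floxed allele of D164A/- cells was removed with an adenovirus carrying Cre and GFP, followed by sorting for GFP, and the making of the ΔC and dm cells is not given in the sources used here. The treatments were Wnt3a (100 ng/ml, 3 days) and TGFβ (2 ng/ml, 4 days), each with its own untreated cells of every genotype, and the resulting 28 conditions had 2 biological replicates each. The study describes more than 1 fl/fl line, but the labels do not say which line a sample came from, nor how many lines the other genotypes had, so that a difference between genotypes and a difference between cell lines cannot be told apart, and the p-values measure only the spread between these samples. In bulk samples such as these, fewer cells with a transcript and less transcript per cell cannot be told apart.

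The libraries held 22.4 to 33.7 M reads in genes. Ctnnb1 itself lay at medians of 773 to 1870 CPM in the 7 genotypes, and its level does not show whether an allele is mutant or deleted. Epithelial markers were present in every line, with a summed level of 1070 to 8140 CPM, but not every marker was. Krt19 was under 0.1 CPM at the median in all 6 mutant lines and at 29.0 CPM in fl/fl. Cldn7 had a median of 0.576 CPM in dm/fl and 78.1 CPM in fl/fl. Markers of endothelial cells and adipocytes, which are rich in caveolae, were low at the median. None of 6 endothelial markers reached a median of 1 CPM in any line, and at most 1 of 5 adipocyte markers did, with Adipoq, Plin1, Cfd and Lep under 0.1 CPM in each line. Single samples of dm/fl reached a summed level of 35.2 CPM for the endothelial and 23.6 CPM for the adipocyte markers, against at most 3.71 and 5.71 CPM in the other lines. The summed level of 7 fibroblast markers ranged from 4.49 to 24.2 CPM in fl/fl and from 50.7 to 144 CPM in D164A/-, with Lum and Thy1 under 0.1 CPM at the median in every line. It reached 298 CPM in ΔC/fl, 327 CPM in dm/fl, 78.2 CPM in D164A/fl and at most 27.2 CPM in ΔC/- and dm/-. Pdgfra had the highest median of the 7 in every line. In D164A/- it was at 77.7 CPM, with Col1a2, Col3a1 and Dcn also under 0.1 CPM at the median there. The 6 basal markers summed to 8.65 to 3590 CPM, and the 4 leukocyte markers to 292 to 533 CPM in dm/fl and to at most 217 CPM in the other lines, with Ptprc and Adgre1 under 0.1 CPM at the median in each. Csf1r alone had a median of 415 CPM in dm/fl and 86.2 CPM in fl/fl. The part of these markers in the results was not tested. Libraries of the Wnt3a experiment also differed in how their values ran with the GC content of the genes, which is described with the Wnt3a results.

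Caveolae are small flask-shaped pits of the plasma membrane. Caveolins are membrane proteins that insert into the inner leaflet and assemble with cholesterol, and cavins form a coat around them on the cytosolic side. Cavin1 is needed for caveolae to form, the other cavins modify the coat, and Ehd2 is an ATPase at the neck of the pit that holds it at the surface. Caveolae flatten when the membrane is stretched, and caveolin 1 has long been studied in mammary tumors.

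The coding genes lie in separate places of the genome except for the caveolins. On GRCm38, Cav2 (chromosome 6, 17281185-17289130) and Cav1 (chromosome 6, 17306335-17341328) are neighbors, while Cavin1 lies on chromosome 11 (100956736-100970617), Cavin2 on chromosome 1 (51289126-51302960), and Ehd2 (15946963-15967535) and Cavin3 (105480616-105482197) lie far apart on chromosome 7. The 250 bases upstream of the first listed RefSeq start (GRCm38.p6) are printed for Cavin1 and Cav1, the members with the largest differences between lines, and for Cav2, the neighbor of Cav1 that remained transcribed in every line. They are written 5′ to 3′ in the direction of transcription, and capitals mark the letters searched for on both strands, GGAATG (bound by TEAD factors), GGGCGG (a GC box), CTTTGAT (bound by TCF and LEF factors) and CCAAT.
Cavin1, chr11:100970618-100970867, minus strand: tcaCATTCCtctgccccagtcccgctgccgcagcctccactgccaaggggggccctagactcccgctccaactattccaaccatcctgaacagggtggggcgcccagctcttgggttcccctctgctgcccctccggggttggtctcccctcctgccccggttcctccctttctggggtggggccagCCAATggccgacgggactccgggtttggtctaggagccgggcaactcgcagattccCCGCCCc
Cav1, chr6:17306085-17306334, plus strand: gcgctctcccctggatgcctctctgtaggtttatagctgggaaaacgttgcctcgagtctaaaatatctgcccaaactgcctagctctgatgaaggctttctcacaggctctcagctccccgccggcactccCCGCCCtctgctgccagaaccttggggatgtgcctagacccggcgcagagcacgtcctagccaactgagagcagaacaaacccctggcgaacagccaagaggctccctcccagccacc
Cav2, chr6:17280935-17281184, plus strand: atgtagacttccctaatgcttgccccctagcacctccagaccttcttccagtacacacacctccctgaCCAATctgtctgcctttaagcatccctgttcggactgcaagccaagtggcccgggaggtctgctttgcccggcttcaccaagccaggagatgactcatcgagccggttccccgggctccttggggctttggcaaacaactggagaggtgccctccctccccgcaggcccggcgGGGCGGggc
All 3 windows held 1 GC box, and 32.7% of 32851 RefSeq promoter windows of the same length held at least 1. The CCAAT letters were found in Cavin1 and Cav2, and in 33.8% of all windows. The TEAD letters were found in Cavin1 alone among the 3, ending 241 bases before the start, and in 12.6% of all windows. The TCF and LEF letters were in none of the 3 and in 3.21% of all windows. Cavin1 held 12 CpG, and Cav1 and Cav2 held 10 each, against a median of 6 over all windows.

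In fl/fl cells, all 6 transcripts were present, but at very different levels. Per kb of exon, the median level was 101.7 CPM for Cav1 and 81.0 CPM for Cavin1. It was 38.0 CPM for Ehd2, 36.3 CPM for Cav2 and 22.5 CPM for Cavin2. Cavin3 reached only 1.43 CPM per kb. The major caveolin and the cavin required for caveolae thus stood highest at the median, and Cavin3 lowest.

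**Figure D1:**
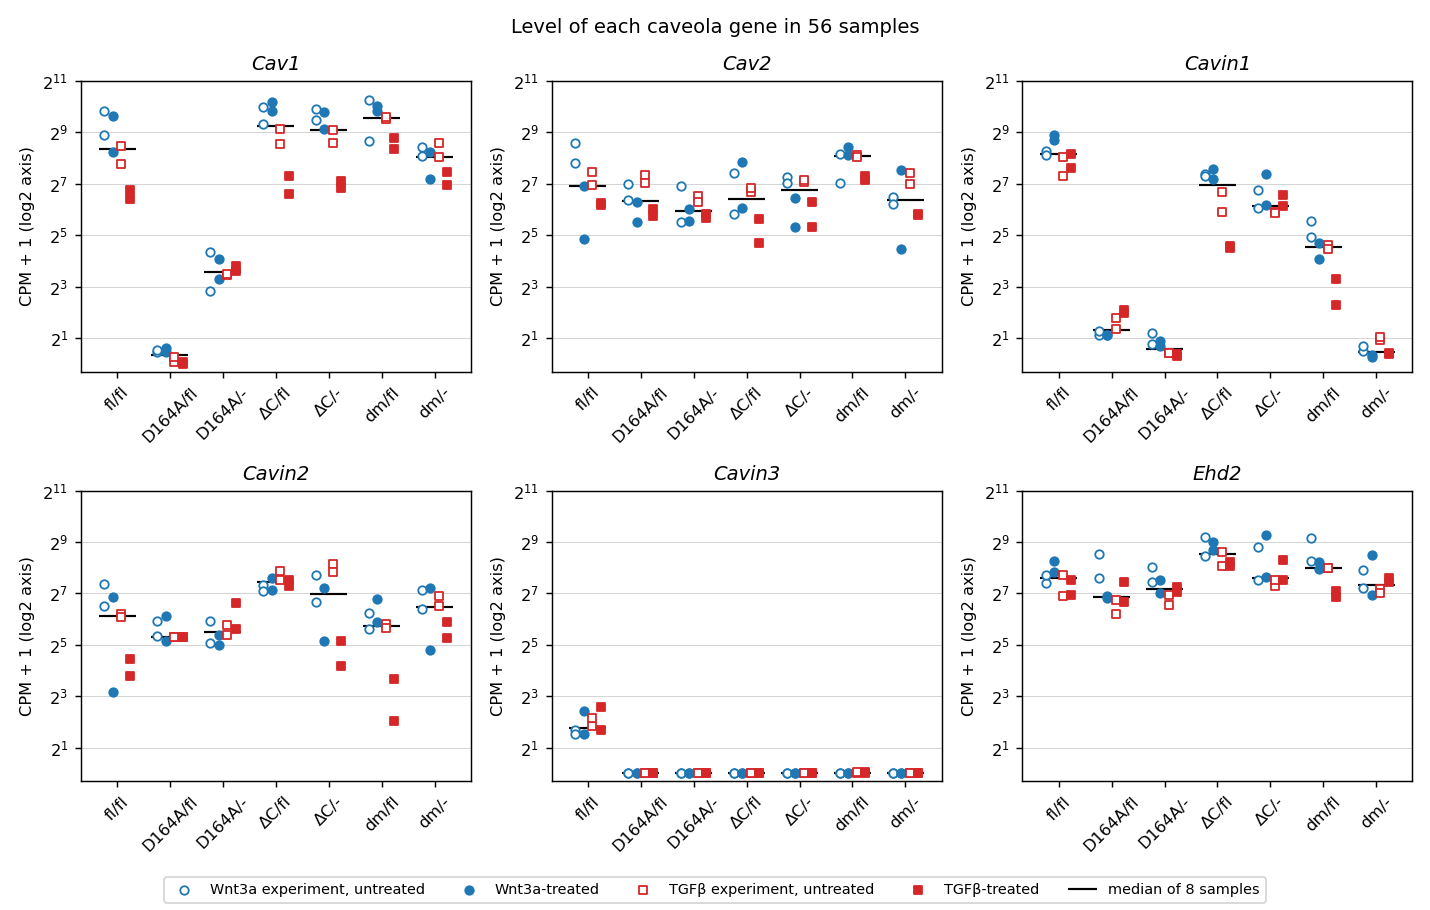
Level of each member in all 56 samples as CPM + 1 on a log2 axis, by line, with bars at the median of 8 samples. Cavin1 covers the range from 0.186 to 475 CPM over the lines, Cav1 is near 0 in D164A/fl, Cavin3 is seen in fl/fl, and Cav2, Cavin2 and Ehd2 stay above 3 CPM in every sample.

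Cavin1, the scaffold of the caveolar coat, was called lower in every mutant line tested. In fl/fl its lowest, median and highest samples were at 158, 283 and 475 CPM. In D164A/-, the comparison it was chosen from, they were at 0.220, 0.479 and 1.31 CPM, a difference of -7.51 ± 0.17 (SE) in log2(CPM + 1), with 590-fold lower medians. D164A/fl cells, which still have a floxed allele, were at 1.15, 1.48 and 3.27 CPM. The dm/- cells were as low, at 0.186, 0.372 and 1.06 CPM, while dm/fl cells were at 3.81, 22.2 and 46.3 CPM. The ΔC lines kept more of the transcript, with 21.4, 123 and 191 CPM in ΔC/fl and 58.0, 70.2 and 165 CPM in ΔC/-. None of the D164A or dm samples overlapped with fl/fl, whereas both ΔC lines did. Between 10.3% and 18.3% of all tested genes did not overlap with fl/fl in the same lines (12.6% in D164A/fl, 18.3% in D164A/-, 10.3% in dm/fl and 13.4% in dm/-), and 11.4% and 14.7% in ΔC/fl and ΔC/-.

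All 5 of the other mutant lines had less Cavin1 than fl/fl cells by the limma fit over all genes. The log2 fold change on the log2(CPM + 1) scale was -6.67 ± 0.17 in D164A/fl (limma, adjusted p = 1.313e-25). It was -7.58 ± 0.17 in dm/- (limma, adjusted p = 5.572e-27) and -3.90 ± 0.17 in dm/fl (limma, adjusted p = 5.343e-19). In ΔC/fl and ΔC/- it was -1.75 ± 0.17 and -1.79 ± 0.17 (limma, adjusted p = 2.78e-10 and 1.556e-10). These tests use the same fl/fl samples that the choice of Cavin1 rested on. Cavin1 passed in all 5 lines with the contrast limited to the Wnt3a or to the TGFβ experiment, with -1.13 and -2.38 in ΔC/fl. The fit was still that of all samples.

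Ordered by the median, Cavin1 ran fl/fl, ΔC/fl, ΔC/-, dm/fl, D164A/fl, D164A/-, dm/-. Samples of neighbors in this order overlapped except between ΔC/- and dm/fl and between dm/fl and D164A/fl. The share of all genes that separate between these lines was not counted.

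Cav1, the main structural protein of caveolae in most cells, was near 0 in a single genotype, D164A/fl. Across the 8 D164A/fl samples it ranged from 0 to 0.526 CPM with a median of 0.276 CPM, that is 0 to 15 reads per library and 57 reads in all. D164A/- cells were at 6.12 to 19.1 CPM with a median of 10.7 CPM. In fl/fl cells the lowest, median and highest samples were at 84.8, 326 and 901.5 CPM. The ΔC/fl (96.9 to 1166 CPM), ΔC/- (115 to 952 CPM), dm/fl (323 to 1240 CPM) and dm/- cells (122 to 389 CPM) all overlapped with fl/fl. Both D164A lines lay below every sample of the other lines, and D164A/- lay above every sample of D164A/fl. This is a description, since the share of all genes that separate between mutant lines was not counted.

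Against fl/fl, Cav1 changed by -7.96 ± 0.24 in D164A/fl (limma, adjusted p = 5.778e-24). D164A/- differed from fl/fl by -4.65 ± 0.24, given without a test. In the D164A cells, Cav1 was thus higher where the floxed allele had been deleted, by 3.31 ± 0.24 on the log2 scale (D164A/- against D164A/fl, limma, adjusted p = 4.131e-13), with values of 3.13 and 3.5 in the Wnt3a and TGFβ experiments. This size depends on the pseudocount, since Cav1 in D164A/fl lay below it, and was 5.32 with a pseudocount of 0.1 and 6.3 with edgeR. The difference of Cav1 between D164A/fl and fl/fl likewise went to -10.08 with the smaller pseudocount, and those of Cavin1 in D164A/fl and dm/- to -7.26 and -9.01. In dm/fl cells, Cav1 was 1.13 ± 0.24 above fl/fl (limma, adjusted p = 0.0001921). This call rested on the TGFβ experiment, with 1.70 there and 0.55 in the Wnt3a experiment (limma, adjusted p = 0.203), and was lost in untreated cells (0.76) and without the first Wnt3a-treated fl/fl replicate or without the second untreated dm/fl replicate of the Wnt3a experiment. In dm/- cells, the difference was -0.39 ± 0.24 and did not pass (limma, adjusted p = 0.1827), with -1.16 in the Wnt3a experiment, which passed there, and 0.39 in the TGFβ experiment. ΔC/fl and ΔC/- cells were at 0.61 ± 0.24 and 0.49 ± 0.24, under the fold threshold of 1.

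Cavin3, which recruits signaling proteins to the coat, was detected in fl/fl cells, with 1.85, 2.38 and 4.89 CPM in the lowest, median and highest sample and 606 reads in the 8 libraries. No read was counted in the 40 libraries of D164A/fl, D164A/-, ΔC/fl, ΔC/- and dm/-, and 2 reads were counted in dm/fl. With a floor of 3 reads over the 8 libraries of a line, Cavin3 was at least 204-fold lower in ΔC/fl, and the bound for the other 4 lines without a read lay between 206 and 224-fold. In dm/fl it was 345-fold lower (95% Poisson interval 95.5 to 2850). Since Cavin3 passed the filter through the fl/fl samples alone, it could only differ, and it is left out of the counts and medians below. The intervals and floors cover counting error only.

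Cav2, which needs caveolin 1 to reach the cell surface, did not follow Cav1. It was present in all 7 lines, with medians from 59.7 CPM in D164A/- to 269 CPM in dm/fl and 121 CPM in fl/fl, and all lines overlapped with fl/fl. The D164A/fl samples, in which Cav1 was near 0, ranged from 44.7 to 163 CPM. Against fl/fl, the log2 fold change was -0.46 ± 0.34 in D164A/fl (limma, adjusted p = 0.2851). It was 0.92 ± 0.34 in dm/fl, under the fold threshold (limma, adjusted p = 0.02679), and from -0.53 to -0.39 in dm/- and both ΔC lines. In D164A/- the difference was -0.84 ± 0.34, given without a test.

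Cavin2, a coat protein that shapes the membrane, was higher in ΔC/fl cells. The 8 samples of ΔC/fl lay at 134, 171 and 231 CPM (lowest, median, highest) and those of fl/fl at 7.93, 68.9 and 163 CPM. The log2 fold change was 1.87 ± 0.38 (limma, adjusted p = 0.0001333), and it passed in the TGFβ experiment (2.44) but not in the Wnt3a experiment (1.3, limma, adjusted p = 0.0732) or in untreated cells (0.91). ΔC/- cells were at 0.96 ± 0.38, just under the fold threshold, and the D164A lines at -0.09 ± 0.38 and 0.05 ± 0.38, the latter without a test.

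Ehd2, which stabilizes caveolae at the membrane, was present at medians of 115 to 367 CPM in all lines, and every line overlapped with fl/fl. Its largest difference was 0.99 ± 0.24 in ΔC/fl cells (limma, adjusted p = 0.0008778), just short of the fold threshold, which it crossed when any of 8 single libraries was left out. In the other mutant lines its log2 difference from fl/fl was between -0.43 and 0.44.

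**Figure D2:**
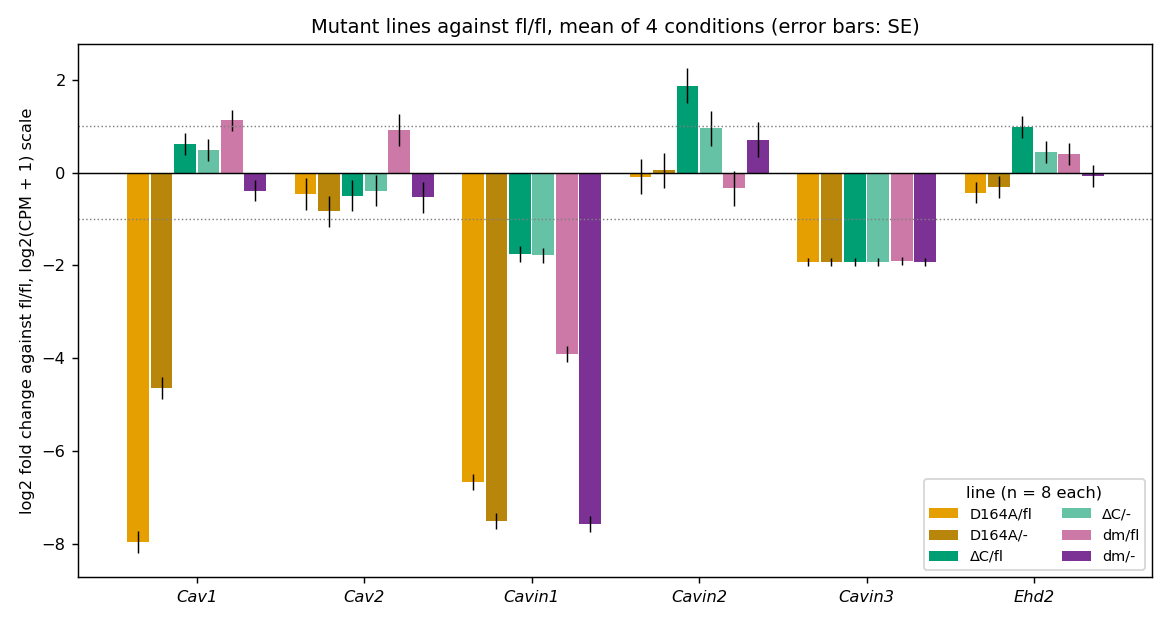
Log2 fold change of each member in the 6 mutant lines against fl/fl cells on the log2(CPM + 1) scale, as the mean of 4 conditions with the standard error, and dotted lines at 1 and -1. Cavin1 bars reach from -1.75 to -7.58 in all lines, Cav1 bars are long in D164A/fl and D164A/- only, and the bars of Cavin3, which is at or near 0 in every mutant line, depend on the pseudocount.

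Of the 5 members other than Cavin3, 2 were called in D164A/fl against fl/fl, where 16.7% of all tested genes were called. In ΔC/fl 2 of 5 were called (background 15%), and in ΔC/- 1 of 5 (21.5%). In dm/fl 2 of 5 were called (15.1%), and in dm/- 1 of 5 (17.7%). In D164A/- 2 of 5 passed the same thresholds (19.7%), a count that the choice of members fixes in part. The median log2 fold change of the 5 members was -0.46 in D164A/fl, 0.61 in ΔC/fl, 0.44 in ΔC/-, 0.39 in dm/fl and -0.39 in dm/-, beside medians over all genes tested that were at most 0.0431 in size. Cavin1, lower each time, accounted for 5 of the 8 calls, and since it was chosen on the fl/fl samples that all these comparisons share, its part in each count is not independent of that choice. The other 3 were Cav1, lower in D164A/fl and higher in dm/fl, and Cavin2, higher in ΔC/fl.

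Lines with a deleted and with a floxed second allele were then compared within each mutation. In the dm cells, loss of the floxed allele went with less Cavin1, Cav1 and Cav2. Cavin1 fell by 3.67 ± 0.17 on the log2 scale (limma, adjusted p = 3.049e-18), and its ranges of 0.186 to 1.06 CPM in dm/- and 3.81 to 46.3 CPM in dm/fl did not overlap. The share of all genes that did not overlap between dm/- and dm/fl was not counted, so this is a description. Cav1 fell by 1.51 ± 0.24 (limma, adjusted p = 2.55e-06) and Cav2 by 1.45 ± 0.34 (limma, adjusted p = 0.0006335), with overlapping samples for both. The call on Cav2 was lost with the contrast limited to the TGFβ experiment (-1.15, limma, adjusted p = 0.0651) or to untreated cells. Cavin2 rose by 1.05 ± 0.38 (limma, adjusted p = 0.02279), and this call was lost when any of 6 single libraries was left out, and in the Wnt3a experiment (0.25). The dm pair had 17.5% of all genes called.

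In the D164A cells, Cav1 was the only one of the 4 members tested that was called, where 9.23% of all genes were. Cavin1 was lower by 0.85 ± 0.17 in D164A/- than in D164A/fl, given without a test because the D164A/- samples had chosen it. In the ΔC cells, 0 of 5 members were called by limma, beside 13.3% of all genes. Of the 5, 2 had an unadjusted p under 0.05, namely Cavin2 with -0.92 ± 0.38 and Ehd2 with -0.55 ± 0.24, and edgeR called none.

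TGFβ, which drives epithelial-mesenchymal transition in mammary cells, was followed in each line after 4 days. Cav2 was lower in treated cells of all 7 lines and Cav1 in 5 of 7, without overlap, while Cav1 was slightly higher in treated D164A/- cells. With 2 samples a group, samples of a line can separate without any response. The share of all genes that did so was counted for 7 of 7 lines only. Separation in fewer lines or in a single line is therefore given here and below as a description. Untreated fl/fl cells had 220 and 355 CPM of Cav1 and treated cells 108 and 84.8 CPM. In ΔC/fl, 372 and 565 CPM stood against 96.9 and 158 CPM. In ΔC/-, 383 and 538 CPM stood against 138 and 115 CPM. Treated and untreated samples were separate in all 3 lines.

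Cav1 fell by 1.88 ± 0.47 on the log2 scale in ΔC/fl (limma, adjusted p = 0.006303). It fell by 1.85 ± 0.47 in ΔC/- (limma, adjusted p = 0.009062) and changed by -1.53 ± 0.47 in fl/fl (limma, adjusted p = 0.03893). With 2 samples a group these calls were fragile. The fl/fl call was lost without any of its 4 libraries, with edgeR, with a pseudocount of 0.1, without a filter and after rescaling, with adjusted p of 0.000738 to 0.381 over all alternatives. Each ΔC call was lost without 2 of its 4 libraries. In dm/fl (741 and 766 against 323 and 442 CPM) and dm/- (260 and 389 against 174 and 122 CPM), the treated samples also lay below the untreated, with -0.99 ± 0.47 and -1.12 ± 0.47 that did not pass (limma, adjusted p = 0.2172 and 0.1685). The D164A/- cells had 10.0 and 10.3 CPM without and 11.2 and 12.9 CPM with TGFβ, and the D164A/fl cells were at or near the detection floor.

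Cav2 was lower in TGFβ-treated than in untreated samples in 7 of 7 lines, without overlap in any of them. Of the 13754 genes tested, 0.8% were lower in this way. The fl/fl cells had 124 and 177 CPM untreated and 74.8 and 71.8 CPM treated. D164A/fl had 163 and 128 against 63.8 and 52.5 CPM, and D164A/- had 91.8 and 76.5 against 49.9 and 55.5 CPM. ΔC/fl had 103 and 113 against 25.2 and 49.0 CPM, and ΔC/- had 135 and 142 against 76.5 and 39.0 CPM. The dm/fl cells had 276 and 263 against 140 and 158 CPM, and dm/- had 171 and 126 against 54.8 and 55.4 CPM. Line by line, the log2 fold changes of -0.66 to -1.58 did not pass (limma, adjusted p from 0.1687 to 0.9661). The ΔC/fl value passed in 6 of 10 alternatives, among them those with the replicate number as a block (limma, adjusted p = 0.0285) and without the GC trend (limma, adjusted p = 0.00191). The 6 also count looser thresholds in the same fit, and the block again with the numbers crossed in ΔC/- only.

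A contrast averaging the 7 responses was therefore added after these values had been seen. Over the 7 lines, Cav2 fell by 1.16 ± 0.26 (limma, adjusted p = 0.0006403), and the call held without each of the 28 libraries and in the other 10 alternatives. Cav1 fell by 1.04 ± 0.18 (limma, adjusted p = 2.467e-05), with D164A lines in which it was near 0 or did not differ included, and its value slipped to between -0.99 and -1 without 1 of 4 libraries (the second untreated replicate of fl/fl, ΔC/fl or dm/-, or the first treated replicate of ΔC/fl). Cavin2 fell by 1.30 ± 0.29 (limma, adjusted p = 0.0006348), although its values in D164A/-, D164A/fl and ΔC/fl were 0.53, 0.01 and -0.26 and the treated samples were lower without overlap in 4 of 7 lines. Cavin1 stayed under the fold threshold at -0.43 ± 0.13 (limma, adjusted p = 0.0111), and Ehd2 was at 0.08 ± 0.18 (limma, adjusted p = 0.7845). Of all genes tested, 4.88% were called in this contrast, and 2.2% were called lower.

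**Figure D3:**
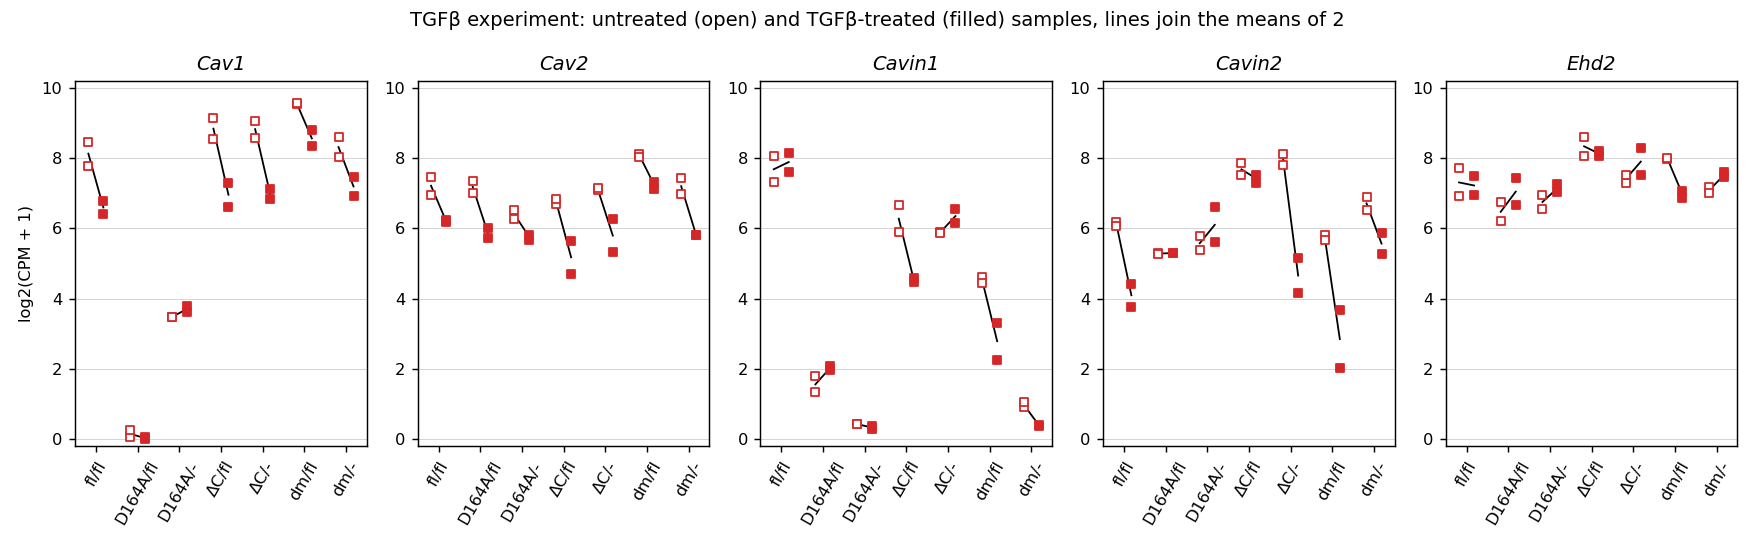
Log2(CPM + 1) of Cav1, Cav2, Cavin1, Cavin2 and Ehd2 in untreated (open) and TGFβ-treated (filled) samples of each line, with lines joining the means of 2. Cav2 slopes down in all 7 lines, while Cavin1 slopes down steeply in ΔC/fl and dm/fl and not in fl/fl or ΔC/-.

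Treated and untreated levels of Cavin1 in the TGFβ experiment differed in direction between lines. In ΔC/fl cells, it went from 58.6 and 100.3 CPM to 21.4 and 23.1 CPM. In dm/fl cells it went from 23.6 and 20.8 CPM to 8.94 and 3.81 CPM. Fl/fl cells had 158 and 265 CPM without and 196 and 286 CPM with TGFβ, and ΔC/- cells 59.1 and 58.0 CPM without and 69.8 and 93.4 CPM with it. Treated samples were thus lower without overlap in ΔC/fl and dm/fl, overlapped with untreated ones in fl/fl, and were higher without overlap in ΔC/-. At the low levels of the remaining lines, dm/- went from 0.886 and 1.06 CPM to 0.303 and 0.331 CPM and D164A/- from 0.347 and 0.343 CPM to 0.220 and 0.293 CPM, both lower without overlap, while D164A/fl went from 1.52 and 2.45 CPM to 3.27 and 2.95 CPM, higher without overlap.

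Cavin1 fell by 1.74 ± 0.34 in ΔC/fl (limma, adjusted p = 0.000523) and by 1.74 ± 0.34 in dm/fl (limma, adjusted p = 0.0003618). The dm/fl call was lost without its second treated replicate, and its value lay between -2.26 and -1.22 over the alternatives. The fl/fl and ΔC/- responses were 0.21 ± 0.34 and 0.46 ± 0.34 and did not pass. The dm/- response of -0.58 ± 0.34 did not pass (limma, adjusted p = 0.4075), but did with a pseudocount of 0.1 (-1.36) and with edgeR (-1.6). The response in ΔC/fl differed from that in fl/fl by -1.95 ± 0.49 (limma, adjusted p = 0.01704), and that in dm/fl by -1.95 ± 0.49 (limma, adjusted p = 0.01242). The ΔC/fl difference lost its call with a pseudocount of 0.1 and the dm/fl difference with edgeR. Both lost it after removal of the GC trend, in a fit of only the samples compared, and without any of 4 libraries each, namely the first untreated and the second treated fl/fl replicate for both, with the second untreated and first treated ΔC/fl replicate or the first untreated and second treated dm/fl replicate. The size of the differences stayed between -2.33 and -1.57 for ΔC/fl and between -2.47 and -1.42 for dm/fl in all these fits, and was -1.91 and -1.83 without the GC trend. Within the ΔC mutation, the response of ΔC/- exceeded that of ΔC/fl by 2.20 ± 0.49 (limma, adjusted p = 0.005936), a contrast added after the values had been seen, which lost its call only without the second untreated ΔC/fl replicate (limma, adjusted p = 0.0611). In these 3 contrasts, 2.69%, 4.04% and 3.13% of all genes were called.

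Cavin2 went from 279 and 224 CPM to 34.7 and 16.9 CPM with TGFβ in ΔC/-, and from 54.8 and 49.9 CPM to 11.7 and 3.09 CPM in dm/fl. It fell by 3.31 ± 0.76 (limma, adjusted p = 0.003478) and 2.89 ± 0.76 (limma, adjusted p = 0.007324) in these lines. Each call was lost without the first untreated or the second treated replicate of its line. In fl/fl, 71.5 and 66.3 CPM stood against 20.5 and 12.7 CPM without overlap, but the difference of -2.03 ± 0.76 did not pass (limma, adjusted p = 0.1228). It passed in 6 of 10 alternatives, with the replicate block (limma, adjusted p = 0.00837) and without the GC trend (limma, adjusted p = 0.0275) included. The 6 also count looser thresholds in the same fit, and the block with the numbers crossed in ΔC/- only. In ΔC/fl, 231 and 181 CPM stood against 157 and 185 CPM, and in D164A/-, 40.7 and 53.9 CPM against 47.6 and 96.4 CPM, with overlap in both. In D164A/fl, Cavin2 lay between 38.0 and 38.4 CPM in all 4 samples. Ehd2 was called in no line, with the largest response in dm/fl, where 251 and 254 CPM stood against 115 and 134 CPM (-1.02 ± 0.47, limma, adjusted p = 0.2018). This value passed in 5 of 10 alternatives, with the replicate block among them (limma, adjusted p = 0.00425). The looser thresholds and the crossed block are among the 5 as well.

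In total, 7 of 35 pairs of member and line were called for TGFβ, all lower. They were 1 of 5 members in fl/fl, where 6.25% of all genes were called, 2 of 5 in ΔC/fl (7.74%), 2 of 5 in ΔC/- (6.55%) and 2 of 5 in dm/fl (10.3%). By limma 0 of 5 were called in D164A/fl (3.38%), D164A/- (4.06%) and dm/- (6.12%). Unadjusted p-values under 0.05 were found for 0, 0 and 2 members in these lines, and edgeR called 0, 0 and 1, the latter Cavin1. Differences between mutant and fl/fl responses other than those of Cavin1 did not pass in any of the 28 remaining pairs, beside 3.81% of all genes called in D164A/fl, 4.28% in D164A/-, 2.01% in ΔC/- and 2.78% in dm/-.

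Wnt3a, a ligand of the canonical pathway, gave no call on any member. By limma, 0 of 35 pairs were called, with 4 at an unadjusted p under 0.05, and edgeR called 0. Of all genes, 0.378% were called in fl/fl, 4.15% in D164A/fl, 0.654% in D164A/-, 0.225% in ΔC/fl, 0.0509% in ΔC/-, 0.574% in dm/fl and 0% in dm/-. The 4 pairs were Cav2 and Cavin2 in fl/fl, Ehd2 in D164A/fl and Cavin1 in dm/fl. None of the 30 differences from the fl/fl response was called by limma or edgeR, with 6 at an unadjusted p under 0.05. Here 2.12% of all genes were called in D164A/fl, 0.24% in D164A/-, 0.0218% in ΔC/fl, 0.0291% in ΔC/-, 0.145% in dm/fl and 0.0727% in dm/-. The mean of the 7 responses gave 0 of 5 calls by limma and edgeR, with 1 (Cav2, -0.59 ± 0.26) at an unadjusted p under 0.05 and 0.494% of all genes called. For fl/fl, Cav2 was at 222 and 384 CPM without and 27.9 and 118 CPM with Wnt3a, and the difference of -2.32 ± 0.68 did not pass (limma, adjusted p = 0.165). Cavin2 was at 90.2 and 163 CPM without and 7.93 and 116 CPM with Wnt3a (-1.92 ± 0.76, limma, adjusted p = 0.253). Without the second treated replicate both passed, at -3.34 and -3.78, and both passed with the replicate number as a block (limma, adjusted p = 0.0153 and 0.0279).

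Replicates of the Wnt3a experiment stood apart along the GC content of genes. For each library, the rank correlation (rho) of the genes' deviation from their mean with their GC content gives the direction of this trend, and it ranged from -0.62 to 0.80 in the Wnt3a experiment and from -0.50 to 0.48 in the TGFβ experiment. The first and second Wnt3a-treated fl/fl replicates were at 0.499 and -0.317. Cav2 (43.1% GC) and Cavin2 (44.4%) have low GC among the genes tested, and Cavin1 (57.3%) and Ehd2 (56.8%) have high GC. In the Wnt3a experiment, Cav2 was lower in the replicate with the higher trend in 14 of 14 conditions, by a median of 0.94 on the log2 scale. Cavin2 was lower there in 13 of 14 conditions, Cav1 (49.3% GC) in 12 of 14, and Ehd2 was higher in 12 of 14, by a median of 0.65. Cavin1 was higher in 11 of 14 conditions, by a median of only 0.17. In the TGFβ experiment the same held in 11 of 14 conditions for Cav2, by a median of 0.11, and in 11 of 14 for Cavin2, by a median of 0.29. Cav1 was lower there in 7 of 14 conditions, and Ehd2 was higher in 9 of 14. Cavin1, in spite of its high GC, was lower there in 9 of 14, with a median difference of -0.06. The part of the trend in the other results was not tested beyond the fits in which it was removed.

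**Figure D4:**
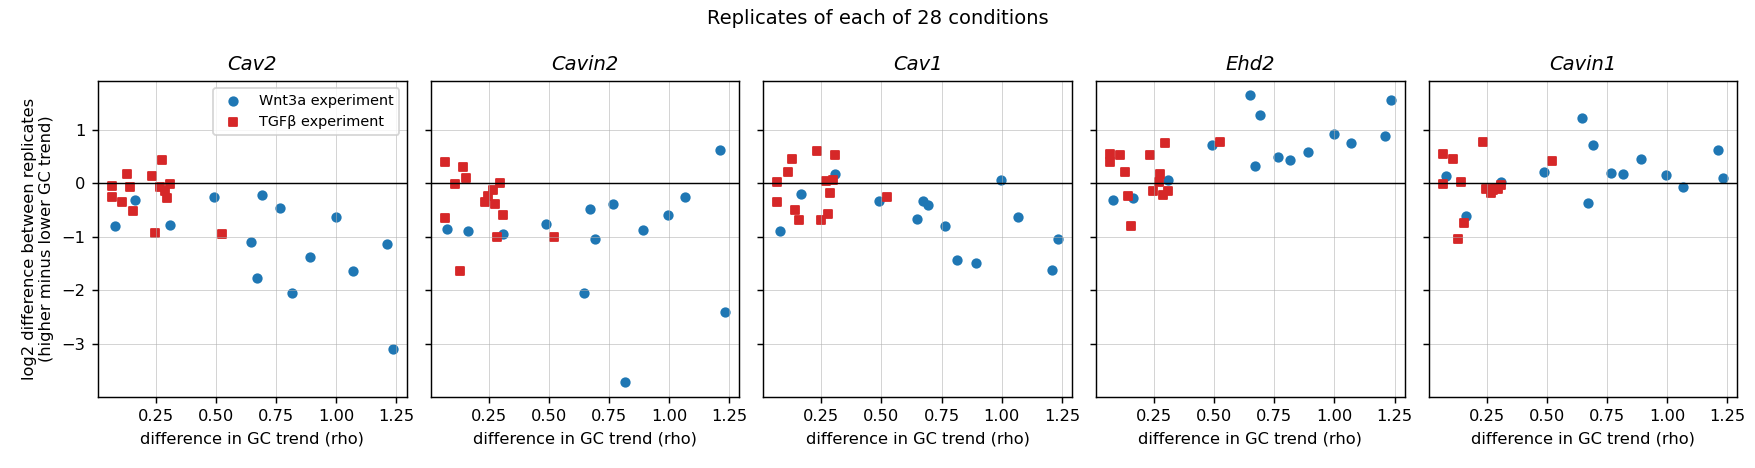
Log2 difference between the 2 replicates of each condition (library with the higher GC trend minus the other) against the difference of their GC trends (rho) for 5 members, with 14 conditions per experiment. Cav2 points of the Wnt3a experiment are all below 0, most Ehd2 points are above 0, and the differences are smaller in the TGFβ experiment.

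Other genes of caveolae and of related membrane coats were looked up from a fixed list of 20, of which 19 were tested. Against fl/fl, 3 of 9 other caveola genes were lower and 0 higher in D164A/fl, 1 was higher in ΔC/fl, 0 were called in ΔC/-, 1 was lower in dm/fl, and 3 were lower in dm/-. Of 10 flotillin, clathrin and AP2 genes, 1 was higher and 1 lower in D164A/fl, ΔC/fl, ΔC/- and dm/-, and 0 were called in dm/fl. In D164A/- 1 of the 9 was higher and 2 were lower, and 2 of the 10 were lower. Over all genes tested the shares called were 16.7% in D164A/fl, 19.7% in D164A/-, 15% in ΔC/fl, 21.5% in ΔC/-, 15.1% in dm/fl and 17.7% in dm/-. With TGFβ, the 9 gave 1 call higher in fl/fl, 1 higher and 2 lower in ΔC/-, 3 higher in dm/fl and 1 higher in dm/-. The 10 gave 1 lower in ΔC/- and 1 lower in dm/-. The shares of all genes called in fl/fl, ΔC/-, dm/fl and dm/- were 6.25%, 6.55%, 10.3% and 6.12%. The largest changes were those of Flot2, Ehd3, Cavin4 and Ror1. The alternatives and the leaving out of libraries were run for the members only, so how stable these calls are is not known.

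Flot2, which forms flotillin membrane domains distinct from caveolae, varied much like Cav1 between the D164A lines. Its median was 108 CPM in fl/fl, 0.159 CPM in D164A/fl and 17.7 CPM in D164A/-. It fell by 6.56 ± 0.22 in D164A/fl against fl/fl (limma, adjusted p = 1.008e-22) and rose by 3.90 ± 0.22 in D164A/- against D164A/fl (limma, adjusted p = 7.746e-16). In dm/- it was 3.38 ± 0.22 lower than in fl/fl (limma, adjusted p = 7.182e-15), with a median of 10.1 CPM. Ehd3, a relative of Ehd2 that acts in endosomal recycling, had medians of 3.73 CPM in fl/fl and 0 in D164A/fl, D164A/- and dm/-. It was higher in ΔC/fl, at a median of 11.1 CPM (1.08 ± 0.18, limma, adjusted p = 9.076e-06).

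Cavin4, the muscle cavin, rose with TGFβ in 4 lines. Its log2 fold change was 2.12 ± 0.37 in fl/fl (limma, adjusted p = 0.000109), 1.91 ± 0.37 in ΔC/- (limma, adjusted p = 0.0005662), 2.14 ± 0.37 in dm/fl (limma, adjusted p = 5.598e-05) and 2.12 ± 0.37 in dm/- (limma, adjusted p = 0.0001437). In the other 3 lines it was at 0.62 to 1.10 and did not pass. Its level was low, with at most 18.3 CPM in any sample of the lines. Ror1, a receptor tyrosine kinase that binds Wnt5a and also holds caveolin and cavin proteins together, rose with Wnt3a in D164A/fl cells (1.90 ± 0.34, limma, adjusted p = 0.0001946), and was lower in dm/- than in fl/fl (-2.07 ± 0.17, limma, adjusted p = 4.631e-12).

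Genes next to Cavin1 and to the caveolin pair were read to see whether they shared these levels. Stat3, 17.1 kb from Cavin1, had medians of 194 CPM in fl/fl, 338 CPM in D164A/fl, 342 CPM in D164A/- and 171 CPM in dm/-. Atp6v0a1, 38.8 kb away on the other side, had 47.5, 54.4, 65.1 and 139 CPM in the same lines. Both were thus present where Cavin1 was nearly absent. Naglu, 99.5 kb away, was lower in the D164A lines, with 23.0 CPM in fl/fl, 7.84 CPM in D164A/fl and 7.33 CPM in D164A/-, and had 52.7 CPM in dm/-. Stat5a (71.6 kb) had 9.28, 29.9, 110.0 and 24.4 CPM and Stat5b (97.7 kb) 38.1, 42.6, 69 and 54.8 CPM in these lines, and Mir6928 was at 0 throughout. Around the caveolins, Tes (175.4 kb from Cav2) had 369 CPM in fl/fl, 191 CPM in D164A/fl and 193 CPM in D164A/-, and Met (122.0 kb from Cav1) had 446, 270.0 and 332 CPM. Capza2 had 372, 215 and 250 CPM and St7 43.9, 30.1 and 24.6 CPM in the same lines, while Tfec and D830026I12Rik were at 0 at the median in fl/fl and both D164A lines. Tes, Cav2, Met, Capza2 and St7 were thus present in D164A cells, at lower medians than in fl/fl. This was not particular to the D164A lines. In ΔC/fl and ΔC/-, where Cav1 overlapped with fl/fl, these genes also had lower medians than in fl/fl. Tes was there at 198 and 223 CPM, Met at 207 and 178 CPM, Capza2 at 239 and 229 CPM and St7 at 32.2 and 34.0 CPM.

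Across the means of the 28 conditions, which share lines and libraries, correlations between the members were at most 0.62. The share of all genes at such values was not counted, and the Cavin1 profile includes the levels it was chosen from. The Pearson correlation of log2(CPM + 1) was 0.62 between Cav1 and Cavin1, 0.61 between Cav1 and Ehd2, 0.547 between Cavin1 and Ehd2, and 0.408 between Cav1 and Cav2. The genes named next were picked for the highest correlations with each member among all genes tested. Values above those between the members were therefore nearly fixed in advance, and no comparison with the members is drawn from them. Nedd8 (0.942), Epb41l3 (0.938) and Creld1 (0.914) were most like Cavin1, and Epb41l3 had medians of 42.4 CPM in fl/fl, 0 in both D164A lines and 0.119 CPM in dm/-. Dglucy (0.946), Fmnl1 (0.933) and Cgref1 (0.921) were most like Cav1, and Cgref1 had 17.7 CPM in fl/fl, 0.0698 CPM in D164A/fl and 1.35 CPM in D164A/-. For Cavin3 they were Krt19 (0.992), As3mt (0.987) and Nacad (0.984), which like Cavin3 were largely confined to the fl/fl line among these 7, with As3mt at 24.4 CPM there and at no more than 0.529 CPM at the median elsewhere. Cav2 (Slc6a14, Mbnl3 and Xk, 0.767 to 0.773), Cavin2 (Uap1l1, Spg20 and Irak1bp1, 0.755 to 0.757) and Ehd2 (Fancf, Oat and 4930447F24Rik, 0.817 to 0.833) had less close neighbors.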

How the data were processed

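RNA was sequenced as poly(A) libraries from a stranded kit in 56 samples of 28 conditions. According to the study's methods, the authors mapped single-end reads to mm10 with STAR, kept unique hits, and counted reads starting in RefSeq exons with QuasR, while use of strand in counting is not given in the sources used here. The deposited values are a normalized signal, which the authors obtained by dividing read counts by an effective library size, and every value was a whole multiple of 1 read (tolerance 0.001 reads), so that the reads were recovered (22.4 to 33.7 M per sample, median 26.8 M, scaling factors 0.809 to 1.14). Of 20314 Entrez identifiers, 20261 matched a RefSeq symbol of GRCm38. All columns were mapped to a labelled sample, and no libraries were identical.

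Values were tested as log2(CPM + 1) with limma 3.58.1 in R 4.3.3, with 1 coefficient per condition, eBayes with trend and Benjamini-Hochberg adjustment over 13754 genes that reached 1 CPM in 2 or more samples. Calls required an adjusted p not above 0.05 together with a log2 difference of 1 or more in size. Line contrasts average 4 condition differences, and interaction contrasts compare responses. Values of line contrasts for 1 experiment or for untreated cells limit the contrast and keep the fit of all samples. On data simulated for ΔC/- against fl/fl, known changes were recovered without false calls. The simulation gave all genes the same spread and had no GC trend. It therefore checks the code and cannot show how reliable the calls are in these libraries. Alternatives were a pseudocount of 0.1, no filter, edgeR 4.0.16 (quasi-likelihood) on the reads, a median-of-ratios scaling, only the samples compared or of 1 experiment, the replicate number as a block, removal of the GC trend (span 0.3, 9381 genes), an unadjusted p of 0.05 with 1.5-fold, and leaving out each library.

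Named were the 6 members, the 4 accessory genes with the largest called change, the 3 genes most like each member, and nearest genomic neighbors. The members, lists and rules were chosen with earlier results of these data known. Whether the replicates pair the samples could not be shown with 2 per condition.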

Additional observations from a re-analysis of the deposited data

Results flagged for a closer look

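The TGFβ response of Cavin1 differed between lines in 3 tests of the difference itself. It was lower in ΔC/fl than in fl/fl cells by a log2 difference of -1.95 ± 0.49 (limma, adjusted p = 0.017), with both treated ΔC/fl samples below both untreated ones. It was lower in dm/fl than in fl/fl cells by -1.95 ± 0.49 (limma, adjusted p = 0.0124), again with 2 of 2 treated samples below. The response in ΔC/- was higher than in ΔC/fl by 2.20 ± 0.49 (limma, adjusted p = 0.00594), and this contrast was chosen after the data had been seen. The comparisons with fl/fl share the 4 fl/fl samples, and those of ΔC share the 4 ΔC/fl samples. Both comparisons with fl/fl lost their calls after removal of the GC trend, in a fit of only the samples compared, and without any of 4 libraries each. The contrast of ΔC/- with ΔC/fl lost its call only without the second untreated ΔC/fl replicate. Treated samples lying below untreated ones describe the response of that line alone and not its difference from fl/fl. Conditions of 2 samples could not be searched for samples that lie apart.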

How the results depend on the processing

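Counts leave out Cavin3, and alternatives are planned unless said otherwise. Counts of calls in mutant lines against fl/fl (8 of 25) and between deleted and floxed lines (5 of 14) stayed within 1.5 times of the main count in every alternative, and no call changed its direction. The 7 of 35 calls for TGFβ became 13 with an unadjusted p and 1.5-fold, 15 in fits of only the samples compared, 15 with only the samples of that experiment (added after seeing the data), and 12 after the GC trend was removed. The 0 of 35 calls for Wnt3a became 4 with the unadjusted p and 1 without the GC trend, the latter Ehd2 in D164A/fl. The 2 of 30 differences between TGFβ responses became 5 with the unadjusted p, 1 with a pseudocount of 0.1, 1 with edgeR, 6 with only that experiment's samples and 0 without the GC trend, and the 0 of 30 for Wnt3a became 6 with the unadjusted p.

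With the replicate number as a block, TGFβ calls were 11, Wnt3a calls 3, and differences between responses 4 for TGFβ and 5 for Wnt3a, and the same with the numbers of 1 negatively correlated pair crossed (added after seeing the data). Same-numbered samples of a line correlated in their deviations from -0.246 to 0.943, so that the pairing is not shown.

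Leaving out 1 library gave 7 to 11 calls against fl/fl, 2 to 3 for D164A/-, 4 to 6 for deleted against floxed, 5 to 7 for TGFβ, 0 to 2 for Wnt3a, and 0 to 2 and 0 to 4 for differences between TGFβ and Wnt3a responses. With 2 samples a condition, single-line responses have standard errors of 0.34 to 0.76 on the log2 scale, and depth limits only Cavin3 and the lowest Cav1 and Cavin1 values.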
